A study of Mus musculus with 6 samples.

Results

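The lysosomal and V-ATPase genes described here are 70 of the 16171 genes in the count table. They were chosen by symbol: 48 named lysosomal genes, and every gene whose symbol starts with Atp6v or Atp6ap except Atp6v0d2, which gave 22. The choice used no measured value of these libraries, but it was made with earlier results of the same data known. The genes fall into 8 classes by role: 10 proteases, 16 glycosidases and sulfatases, 8 lipid enzymes and carriers, 10 membrane proteins, 4 regulators, and the V1 (12), V0 (7) and accessory (3) genes of the V-ATPase.

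RNA was sequenced from Raw264.7 cells, a transformed mouse macrophage line labelled WT, grown on titanium with titanate nanowires made by alkaline heat treatment (TH, the control surface, 3 libraries) or with nanowires coated in calcium phosphate (THCaP, 3 libraries). All 6 libraries received lipopolysaccharide (LPS, a bacterial cell wall component) at 1 µg/mL for 2 h, given 12 h after seeding, and were collected after a further 1 d. No group without LPS, without titanium or at another time was compared, so no difference found here can be divided into a part that needs LPS and a part that does not. Whether a surface's libraries were separate cultures is not stated, so p-values measure only the spread between these samples, which may be technical.

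Lysosomes are acidic organelles in which macrophages degrade what they engulf. Soluble hydrolases cut proteins, sugars and lipids there, and most of them reach the organelle through mannose 6-phosphate tags and their receptors. The V-ATPase, a rotary proton pump, acidifies the lumen: its cytosolic V1 sector hydrolyses ATP and its membrane V0 sector carries the protons. Transcription factors of the Tfeb, Tfe3 and Mitf family bind a short element, named CLEAR, before many of these genes.

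Library totals ran from 28000099 to 30317108 counts, and 3 counts, the limit that a count of 0 allows, correspond to at most 0.107 CPM (counts scaled to a common library size). That limit covers counting error only. The first principal component held 66.4% of the variance of log2 CPM and separated the surfaces, with THCaP replicate 3 the THCaP library nearest to TH. Of 10 macrophage markers 9 stood above 20 CPM in every library and Mertk between 0.201 and 0.546 CPM, with a summed level of 2944 to 3439 CPM on TH and 3089 to 3332 CPM on THCaP. Of the 10, Lyz2 was called, 54.5% higher on THCaP (edgeR adjusted p = 0.0223). Fibroblast and osteoblast markers summed to at most 2.41 CPM in any library, with Lum at 0 in all of them.

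Of the 70 genes, 66 were expressed highly enough to be tested. The other 4, the V1 isoforms Atp6v1b1 and Atp6v1c2, the accessory gene Atp6ap1l and Atp6v1fnb, which shares the prefix but is not known as a pump subunit, had between 1 and 8 counts each over the 6 libraries.

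On THCaP 16 of the 66 tested genes fell and 3 rose, while 47 were not called. A gene is called here at a Benjamini-Hochberg adjusted p under 0.05 in edgeR's quasi-likelihood test over all 11480 tested genes. Of all tested genes 12.0% were called lower and 11.6% higher, against 24.2% and 4.55% of these genes. Their median log2 fold change (THCaP over TH) was −0.17, beside 0.0064 for all tested genes, and 50 of the 66 values were negative. The 19 calls in either direction stand beside 23.6% of all tested genes. In 33 genes every THCaP library lay below every TH library, and in 7 above, where 21.3% and 22.1% of all tested genes did so. Together the 70 genes took 1.84%, 1.71% and 1.72% of all counts in TH replicates 1, 2 and 3 and 1.55%, 1.44% and 1.66% in THCaP replicates 1, 2 and 3. Every THCaP library thus lay below every TH library, with THCaP replicate 3 nearest to TH. The means were 1.75% and 1.55%, and for the proteases alone 0.620% and 0.492%. By class, the shares of the proteases, regulators, V1 and V0 genes did not overlap between the surfaces. Those of the glycosidases and sulfatases, lipid enzymes and carriers, membrane proteins and accessory genes overlapped. With library totals in place of edgeR's TMM scaling factors, which correct for differences in composition between libraries, 12 fell and 5 rose, and the calls of Ctsl, Gaa, Pla2g15 and Mitf were lost. That scaling also moved the whole table, to 16.6% higher and 9.26% lower. The counts moved with single libraries. They were 26 lower and 3 higher without THCaP replicate 3, where calls over the whole table rose too, to 17.4% lower and 18.5% higher. They went to 6 and 0 when TH replicate 2 was left out, to 4 and 0 for TH replicate 3, and to 3 and 0 for THCaP replicate 1. In these last 3 fits calls over the whole table fell, to between 4.02% and 4.37% lower and between 2.51% and 2.54% higher.

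**Figure D1:**
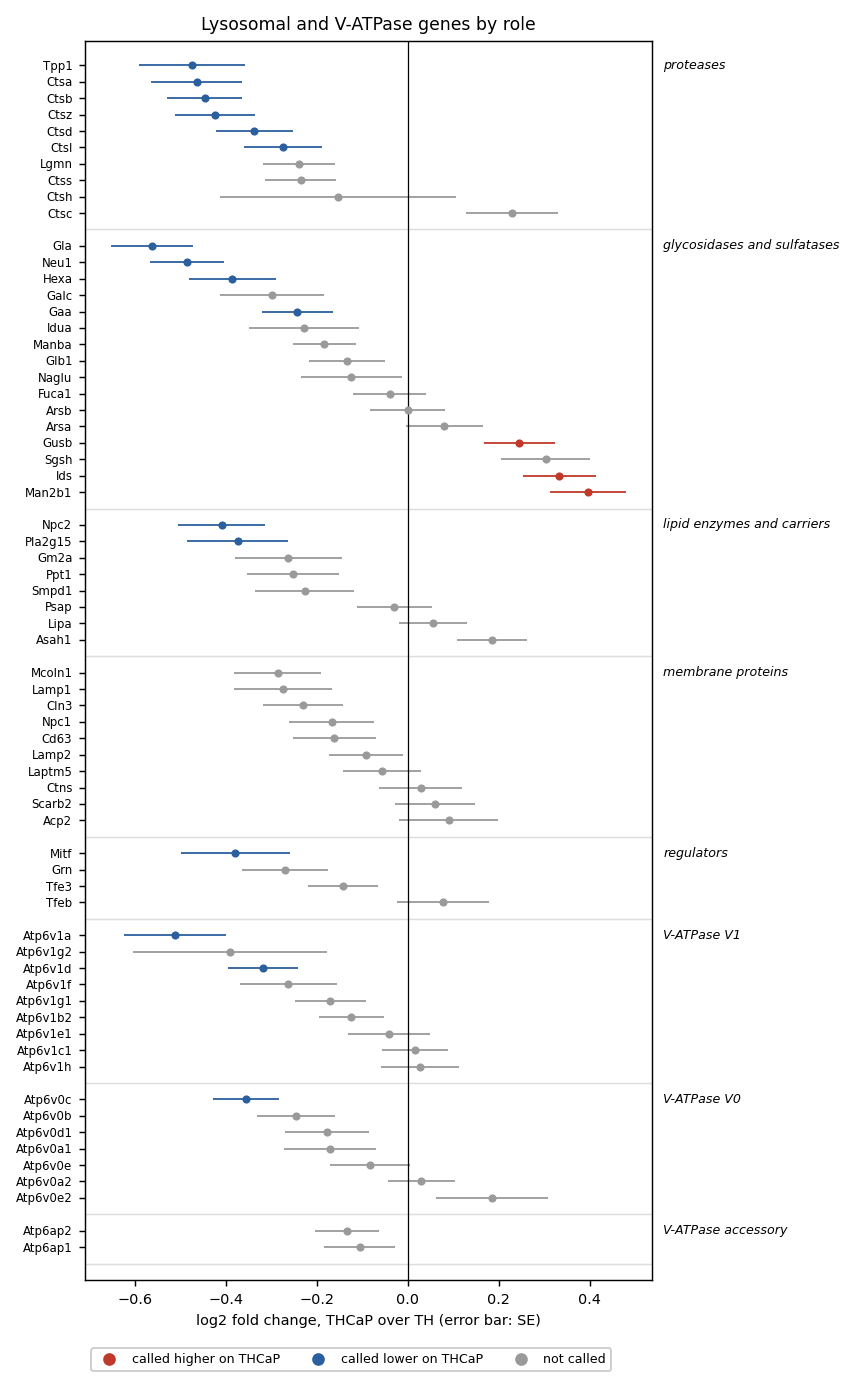
Log2 fold change, THCaP over TH, of the 66 tested genes (x axis), 1 gene per line grouped by role, with bars of 1 standard error. Blue points are the 16 genes called lower, red points the 3 called higher and grey points the 47 not called, and the 3 red points all lie among the glycosidases and sulfatases.

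Of the 10 proteases 6 fell and 0 rose, where 12.0% of all tested genes were called lower, and their median log2 fold change was −0.31. The count was 1 without THCaP replicate 1 and in the unfiltered log2(FPKM + 1) fit, 2 without TH replicate 3 and 3 without TH replicate 2. In the same order 4.02%, 3.47%, 4.23% and 4.37% of all tested genes were called lower. The count of proteases was 8 with DESeq2, and 8 of 9 tested with a filter of 5 CPM. There 11.2% and 14.2% of all tested genes were called lower. Per gene length, on the authors' FPKM scale (fragment counts scaled by gene length and library size), the cysteine protease cathepsin B gene Ctsb stood highest, at 884 ± 42.2 on TH and 673 ± 54.4 on THCaP (mean ± SD, n = 3 each). Ctsz (446 ± 46.5 on TH), Ctsd (387 ± 22.9) and Ctsa (373 ± 12.7) followed well below it in FPKM, and each of these 3 lay within 2 SD of the gene above it among them, by the SD of the higher gene. Ctsb was counted at 1860, 1697 and 1779 CPM in TH replicates 1 to 3 and at 1292, 1210 and 1414 CPM in THCaP replicates 1 to 3. The groups did not overlap, and the gene was 26.6% lower on THCaP (log2 fold change −0.45, SE 0.08, edgeR adjusted p = 0.00849). Here and below the standard error, SE, is that of the log2 fold change. For any called gene, lack of overlap is not separate support, because the call came from the same libraries.

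Ctsa encodes the carboxypeptidase cathepsin A, also the protective protein of a complex with the sialidase Neu1 and the β-galactosidase Glb1. Its levels were 1445, 1365 and 1382 CPM on TH, against 1036, 870 and 1134 on THCaP, 27.5% lower (−0.46, SE 0.10, edgeR adjusted p = 0.0137). Tpp1, a tripeptidyl peptidase, stood at 398, 380 and 383 CPM on TH, against 281, 229 and 325 on THCaP (−0.47, SE 0.12). In both genes the TH libraries lay close together, THCaP replicate 2 was the lowest library and THCaP replicate 3 the highest of its surface. Ctsz, a carboxypeptidase, fell from 730, 612 and 623 CPM to 481, 492 and 492 CPM (−0.42, SE 0.09), with the THCaP libraries nearly level and TH replicate 1 above the other TH libraries. Ctsd, the aspartic protease cathepsin D, fell from 800, 715 and 752 CPM to 593, 557 and 644 CPM (−0.34, SE 0.08). Ctsl, a cysteine protease, fell from 255, 215 and 229 CPM to 194, 198 and 186 CPM (−0.27, SE 0.09, edgeR adjusted p = 0.0443).

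The other proteases were not called. Ctss, the cathepsin of antigen presentation, was at 482, 453 and 423 CPM on TH, against 392.2, 377 and 384 on THCaP, without overlap (−0.24, SE 0.08, edgeR adjusted p = 0.0541). Lgmn, the asparaginyl endopeptidase that processes cathepsins, had nearly the same log2 fold change and adjusted p (−0.24, 0.0543). Ctsc, which activates granule proteases, was the only protease with a positive value (0.23, SE 0.10, edgeR adjusted p = 0.122), and Ctsh was low, at 2.5 ± 0.524 CPM on TH. Of the 6 calls, that of Ctsb held without each library in turn. Ctsz lost it without THCaP replicate 1 (edgeR adjusted p = 0.0614) and Ctsa without TH replicate 3 or THCaP replicate 1 (up to 0.055). Ctsd lost it if TH replicate 2 or 3 or THCaP replicate 1 was left out (up to 0.0995), Tpp1 without those 3 or TH replicate 1 (up to 0.0743), and Ctsl without any 1 of the 6 libraries (up to 0.148). Some reads of Ctsb, Ctsa and Ctsd may be shared or lost, because 12.8%, 17.4% and 34.4% of their exon bases in GENCODE M21 overlap exons of other genes.

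Glycosidases and sulfatases moved in both directions: 4 of 16 fell (25.0%), 3 rose (18.8%) and 9 were not called, with a median of −0.13. The shares over all tested genes were 12.0% lower and 11.6% higher. Gla, α-galactosidase A, which trims globotriaosylceramide, had the lowest log2 fold change of all 66 tested genes. It stood at 55.2, 52.2 and 57.1 CPM on TH, against 37.9, 33.7 and 39.8 on THCaP, 32.3% lower (−0.56, SE 0.09, edgeR adjusted p = 0.00577). Neu1, which removes sialic acid, was at 95.4, 93.2 and 93.4 CPM on TH, against 68.9, 61.3 and 71.3 on THCaP (−0.48, SE 0.08, edgeR adjusted p = 0.00666). For both genes the gap between the surfaces was wider than the range within either, and the call held without each library in turn. Hexa, the α subunit of β-hexosaminidase A, fell from 508, 454 and 481 CPM to 368, 328 and 408 CPM (−0.39, SE 0.10). Some of its reads may be shared or lost, because 12.8% of its exon bases overlap exons of Tmem202. The acid α-glucosidase Gaa, named after its values were seen, was the fourth that fell (−0.24, SE 0.08, edgeR adjusted p = 0.0485). On GRCm38 Gla lies on chromosome X at 134588149 to 134601125 and Neu1 on chromosome 17 at 34931253 to 34935953, both protein coding.

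The 3 genes that rose were Man2b1, Ids and Gusb. Man2b1, the α-mannosidase of N-glycan breakdown, rose from 122, 114 and 104 CPM to 148, 156 and 144 CPM (0.40, SE 0.08, edgeR adjusted p = 0.0127). Ids, a sulfatase of dermatan and heparan sulfate breakdown, rose from 31.4, 34.0 and 32.8 CPM to 41.8, 40.5 and 41.2 CPM (0.33, SE 0.08, edgeR adjusted p = 0.0193). The β-glucuronidase Gusb, named after its values were seen, was 18.5% higher (0.25, SE 0.08, edgeR adjusted p = 0.0456). No TH library reached the lowest THCaP library in any of these 3 genes. Sgsh, another heparan sulfate sulfatase, also had groups that did not overlap but was not called (0.30, SE 0.10, edgeR adjusted p = 0.0507). Exons of Card14 overlap 21.6% of the exon bases of Sgsh. Arsb, the sulfatase with the highest FPKM of this class after Hexa, stood at 605 ± 16 CPM on TH, against 605 ± 50.2 on THCaP (edgeR adjusted p = 0.997). The calls of Hexa, Man2b1 and Ids were each lost on leaving out TH replicate 2, TH replicate 3 or THCaP replicate 1 (up to 0.0851, 0.0699 and 0.094). That of Gusb was lost without those 3 or THCaP replicate 2 (up to 0.163), and that of Gaa was kept only without THCaP replicate 3 (up to 0.175).

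Of the 8 lipid enzymes and carriers 2 fell (25.0%, beside 12.0% of all tested genes) and 0 rose, with a median of −0.24. Npc2, the soluble carrier that hands cholesterol to the membrane protein Npc1, was counted at 329, 303 and 298 CPM on TH, against 227, 212 and 262 on THCaP (−0.41, SE 0.09, edgeR adjusted p = 0.0174). Pla2g15, a phospholipase A2 of the lysosome, was counted at 50.2, 53.0 and 48.6 CPM on TH, against 40.3, 32.9 and 44.0 on THCaP (−0.37, SE 0.11, edgeR adjusted p = 0.038). In both the surfaces did not overlap. The class members with the highest FPKM showed little difference: Psap, the precursor of the saposins, was at 1023 ± 53.5 CPM on TH, against 1002 ± 68.8 on THCaP (edgeR adjusted p = 0.813). Lipa, the acid lipase of cholesteryl esters, was at 388 ± 18.1 and 403 ± 8.37 CPM (edgeR adjusted p = 0.607). Asah1, the acid ceramidase, had the only other positive value of the class (0.18, SE 0.08, edgeR adjusted p = 0.107), and its libraries did not overlap. The call of Npc2 was lost when TH replicate 2 or 3 or THCaP replicate 1 was left out (adjusted p up to 0.0803), and that of Pla2g15 was kept only without THCaP replicate 3 (up to 0.128).

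None of the 10 membrane proteins was called in edgeR's test, with adjusted p from 0.055 for the calcium channel Mcoln1 to 0.841 for the cystine exporter Ctns. Lamp1, a heavily glycosylated protein that lines the organelle, was among the most abundant of all these genes, at 684 ± 19.8 FPKM on TH and 587 ± 91.1 FPKM on THCaP. Its counts were 1566, 1500 and 1599 CPM on TH, against 1291, 1086 and 1480 on THCaP, where THCaP replicate 3 came closest to TH without reaching it (−0.27, SE 0.11, edgeR adjusted p = 0.0907). Lamp2, its relative with a role in chaperone-mediated autophagy, stood at 295, 322 and 320 CPM on TH, against 293, 276 and 310 on THCaP, and the groups overlapped (−0.09, SE 0.08). Laptm5, a lysosomal protein of blood cells, was at 1217 ± 118 and 1171 ± 29.8 CPM (−0.06, SE 0.09). At an unadjusted p under 0.05, edgeR's test gave 3 of the 10 lower (Mcoln1, Lamp1 and Cln3) and 0 higher, beside 19.2% lower and 19.8% higher of all tested genes. DESeq2 called 1 lower and limma-voom 0, and edgeR called 3 lower without THCaP replicate 3. The shares of all tested genes called lower in these fits were 11.2%, 11.9% and 17.4%, in the same order.

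**Figure D2:**
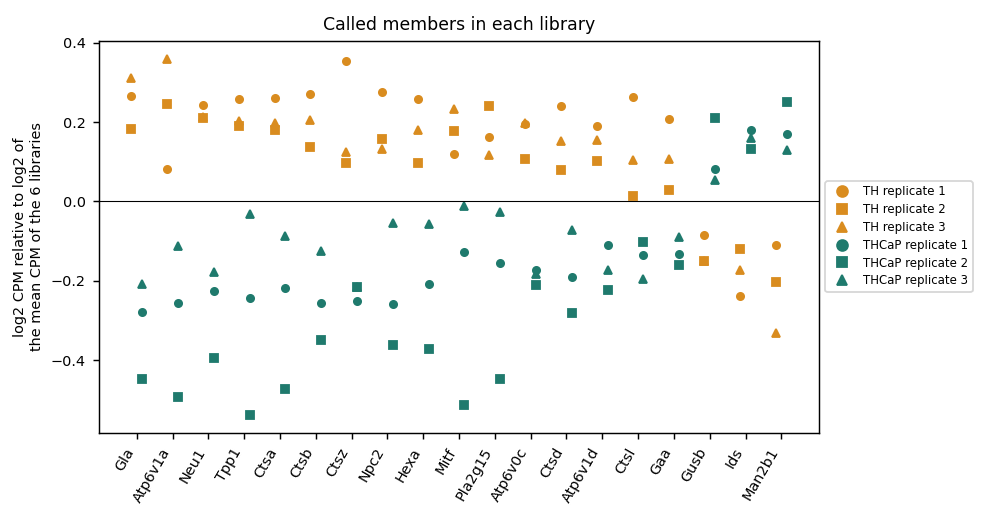
Level of the 19 called genes in each library (y axis: log2 CPM minus log2 of the gene's mean CPM over the 6 libraries), ordered by log2 fold change, TH in orange and THCaP in green with 1 symbol per replicate number. The surfaces do not overlap in any of the 19. These genes were called on the same libraries, so the separation is not separate support for the calls. THCaP replicate 2 (square) and replicate 3 (triangle) lie farthest apart in genes such as Mitf, Tpp1 and Pla2g15.

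Among the regulators Mitf alone was called. Mitf, a basic helix-loop-helix factor of the family that binds the CLEAR element, was at 92.6, 96.4 and 100.1 CPM on TH, against 78.0, 59.7 and 84.5 on THCaP (−0.38, SE 0.12, edgeR adjusted p = 0.0465). THCaP replicate 2 was the lowest library, and the call was kept only without THCaP replicate 3 (adjusted p up to 0.143 without another library). Tfeb, the best known activator of lysosomal genes, was at 51.6, 46.0 and 44.1 CPM on TH, against 49.7, 55.0 and 44.9 on THCaP, with overlapping groups (0.08, SE 0.10, edgeR adjusted p = 0.596). Per length Tfe3 stood above both, at 34.3 ± 0.849 FPKM on TH against 8.83 ± 0.29 FPKM for Mitf and 6.15 ± 0.544 FPKM for Tfeb. Tfe3 was 135 ± 2.73 CPM on TH, against 122 ± 6.91 on THCaP (−0.14, SE 0.08, edgeR adjusted p = 0.192). Grn, progranulin, a secreted and lysosomal protein, was at 695, 585 and 575 CPM on TH, against 516, 484 and 539 on THCaP (−0.27, SE 0.09, edgeR adjusted p = 0.0613). RNA levels say nothing of where these factors are in the cell.

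The V-ATPase had 3 of 18 tested genes called lower (16.7%, beside 12.0% of all tested genes) and 0 higher, 1 of them in V0 and 2 in V1. Atp6v1a, the catalytic A subunit, had the largest change. Its levels were 528, 592 and 641 CPM on TH, against 418, 355 and 462 on THCaP, 29.8% lower (−0.51, SE 0.11, edgeR adjusted p = 0.0143). Atp6v1d, the D subunit of the central shaft, was at 62.5, 58.8 and 61.0 CPM on TH, against 50.7, 46.9 and 48.6 on THCaP (−0.32, SE 0.08, edgeR adjusted p = 0.0199). Atp6v0c, the c subunit of the proton-carrying ring, was at 89.2, 83.9 and 89.3 CPM on TH, against 69.2, 67.3 and 68.6 on THCaP (−0.36, SE 0.07, edgeR adjusted p = 0.0112). In each of the 3 the surfaces were separated, which restates the call. Other V1 subunits were not called: Atp6v1b2, the B subunit that pairs with A, had a log2 fold change of −0.12 (SE 0.07, edgeR adjusted p = 0.226), and Atp6v1c1, Atp6v1e1 and Atp6v1h lay between −0.04 and 0.03. Lower values without a call came from Atp6v1g2 (−0.39, SE 0.21, with overlapping groups) and from Atp6v1f (−0.26, SE 0.11) and Atp6v1g1 (−0.17, SE 0.08), whose groups did not overlap. The other V0 genes ranged from −0.25 for Atp6v0b (edgeR adjusted p = 0.0622) to 0.19 for Atp6v0e2, and the accessory genes Atp6ap1 and Atp6ap2 had −0.11 and −0.13. The calls of Atp6v1a and Atp6v1d were lost when TH replicate 2 or 3 or THCaP replicate 1 was left out (adjusted p up to 0.068 and 0.0834), and that of Atp6v0c without TH replicate 3 or THCaP replicate 1 (up to 0.0599).

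Isoform levels, compared per length, showed which pump genes these cells express. The B subunit came from Atp6v1b2 (60.1 ± 0.99 FPKM on TH), while Atp6v1b1, the form of kidney and other acid-secreting epithelia, had 1 count in all. The G subunit came from Atp6v1g1 (110 ± 6.35 FPKM) rather than from the neuronal form Atp6v1g2 (1.75 ± 0.347 FPKM), and the C subunit from Atp6v1c1, with 3 counts in all for Atp6v1c2. Among the a subunits of V0, Tcirg1, the a3 form of osteoclasts and macrophages whose symbol lies outside the prefix, led with 98.2 FPKM on TH, ahead of Atp6v0a2 (17.1 ± 0.706) and Atp6v0a1 (9.36 ± 0.483). Tcirg1 fell from 414, 378 and 382 CPM to 251, 224 and 264 CPM (−0.67, SE 0.09, edgeR adjusted p = 0.00325), a call that held in all 16 alternative fits. Its log2 fold change was lower than that of any V-ATPase gene chosen by the prefix, a difference that was not tested. Atp6v0a2 was not called (0.03, SE 0.07, edgeR adjusted p = 0.79). Tcirg1 made up 80.5%, 77.6% and 78.1% of the summed FPKM of the 3 a subunits on TH and 71.0%, 69.3% and 71.2% on THCaP. Atp6v0d2, the osteoclast form of the d subunit that the prefix rule leaves out, was low and variable, at 11.7, 5.33 and 4.44 CPM on TH, against 4.2, 1.41 and 4.71 on THCaP (−1.06, SE 0.45, edgeR adjusted p = 0.11). Of 10 osteoclast markers, 9 were in the table, and none of these was at 0 in all libraries. Of the 8 tested, 3 were called lower (Acp5, Dcstamp and Mmp9) and 0 higher, where 12.0% of all tested genes were called lower. The summed level of the 9 was 298 to 344 CPM on TH and 285 to 339 CPM on THCaP, with overlap. Most of it came from Nfatc1, which was not called (0.11). Without Nfatc1 the rest summed to 69.9, 56.8 and 59.5 CPM on TH, against 40.4, 37.3 and 45.1 on THCaP, without overlap. Leaving out Nfatc1 was a choice made after the values were seen, so this separation carries no test. Of the sum without Nfatc1, Dcstamp alone gave 39.5, 36.1 and 36.9 CPM on TH, against 26.6, 27.5 and 29.5 on THCaP. Ctsk, Ocstamp, Itgb3 and Atp6v0d2 had overlapping groups and were not called. The part of these markers in the V-ATPase values was not tested. In bulk RNA fewer cells of a type and less RNA per cell cannot be told apart.

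**Figure D3:**
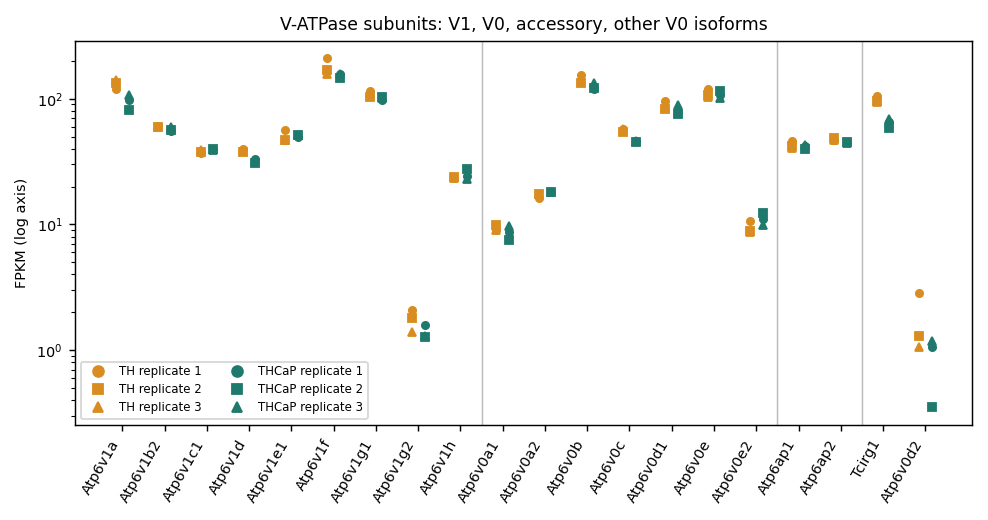
FPKM (log axis) of the 18 tested V-ATPase genes in each library, with Tcirg1 and Atp6v0d2 at the right, TH in orange and THCaP in green with 1 symbol per replicate. Atp6v1a, Atp6v1d, Atp6v0c and Tcirg1, the genes called here, lie lower in every THCaP library than in any TH library, and Atp6v1g2 and Atp6v0d2 lie lowest of all. The calls came from the same libraries, so this separation is not separate support for them.

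RefSeq promoter windows on GRCm38.p6, from 250 bases before to 50 after a gene's start, were found for 60 of the 70 genes and searched for the letters of the CLEAR element. The motifs were TCACGTGA, its core CACGTG, and the full element, which is TCACGTGA with G before it and C after it. Each is its own reverse complement, so both strands were read at once, and each longer one contains the shorter. TCACGTGA was in the window of 8 of the 60 genes (13.3%), beside 2.23% of the 9230 tested genes with a window. CACGTG was in 17 (28.3%, beside 11.9%) and the full element in 1, Cln3 (1.67%, beside 0.823%). The element is known from lysosomal genes, so a larger share in a list of such genes is not a result of these libraries. TCACGTGA was in the window of 4 of 15 genes called lower (Atp6v1a, Ctsa, Ctsd and Gla), 0 of 3 called higher and 4 of 39 tested and not called (Atp6v0d1, Atp6v0e, Cln3 and Mcoln1). In the same order CACGTG was in 6, 0 and 11 of these genes, and the full element in 0, 0 and 1. No difference between these groups was tested. A match is a description of letters, not evidence that a factor was bound there. The stretches around the matches are given for those 4, because they belong to genes that fell, and for Cln3, which holds the full element and was not called. Each reads 5′ to 3′ on the gene's strand, with TCACGTGA in capitals.
Gla, chrX:134601153-134601255, minus strand: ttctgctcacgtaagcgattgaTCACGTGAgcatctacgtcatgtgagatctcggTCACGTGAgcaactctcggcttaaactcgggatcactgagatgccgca
Ctsa, chr2:164833720-164833802, plus strand: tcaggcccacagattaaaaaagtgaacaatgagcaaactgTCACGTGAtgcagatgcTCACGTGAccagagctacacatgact
Ctsd, chr7:142387879-142387966, minus strand: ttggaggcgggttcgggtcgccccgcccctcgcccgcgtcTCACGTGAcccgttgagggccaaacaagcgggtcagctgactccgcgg
Atp6v1a, chr16:44139344-44139431, minus strand: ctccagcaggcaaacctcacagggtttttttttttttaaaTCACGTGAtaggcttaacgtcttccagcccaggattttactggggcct
Cln3, chr7:126583311-126583398, minus strand: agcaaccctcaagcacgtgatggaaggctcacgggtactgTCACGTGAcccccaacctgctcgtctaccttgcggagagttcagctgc
Gla and Ctsa each hold 2 copies, which begin 228 and 195 bases before the start in Gla and 13 bases before and 5 bases into the transcript in Ctsa. The single copies begin 99 bases before the start in Ctsd, 132 in Atp6v1a and 122 in Cln3. These distances are from the RefSeq start. In GENCODE M21 Ctsa, Ctsd, Atp6v1a and Cln3 begin farther upstream, so their stretches lie inside the gene there.

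Other genes of the pathway were followed in 6 further lists. Of 25 tested hydrolases outside the chosen set 7 fell and 2 rose (median −0.11), and of 30 other membrane proteins 8 fell and 3 rose (median −0.10). The background is the same 12.0% lower and 11.6% higher. Hyal3, of the hyaluronidase family, fell from 20.2, 17.9 and 20.3 CPM to 8.68, 6.02 and 10.7 CPM (−1.20, SE 0.18, edgeR adjusted p = 0.00484). Its neighbour Hyal1 fell as well (−0.92, SE 0.23, edgeR adjusted p = 0.0243, up to 0.0847 if TH replicate 2 or 3 or THCaP replicate 1 was left out). In Hyal1, TH replicate 1 (92.4 CPM) stood just above THCaP replicate 3 (85.5 CPM). Hyal3 and Hyal1 overlap each other and Naa80, so that 51.9% of the exon bases of Hyal1 are shared. Acp5, tartrate-resistant acid phosphatase, was 52.1% lower (edgeR adjusted p = 0.0169), a call lost without TH replicate 1 or TH replicate 3 (up to 0.0602). Among membrane proteins the metal transporter Slc11a2 fell from 94.5, 115 and 119 CPM to 61.1, 54.2 and 68.8 CPM (−0.84, SE 0.12). The channel gene Mcoln2 (−0.74, SE 0.14) and the peptide and histidine transporter Slc15a3 (−0.59, SE 0.10) fell too. The calls of Hyal3, Slc11a2, Mcoln2 and Slc15a3 held in all 16 alternatives. Of the exon bases of Slc15a3, 28.1% overlap exons of Tmem132a, and no alternative addresses reads shared or lost there.

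Of 22 genes that sort and tag hydrolases, 3 were called lower (13.6%) and 3 higher (13.6%), with a median of 0.06. These shares are near those of all tested genes, 12.0% and 11.6%. Cln8, which escorts lysosomal enzymes out of the endoplasmic reticulum, fell from 153, 164 and 160 CPM to 107, 92.6 and 119 CPM (−0.59, SE 0.10, edgeR adjusted p = 0.00671), in all 16 alternatives. Igf2r, the large mannose 6-phosphate receptor, fell (−0.61, SE 0.15, edgeR adjusted p = 0.0206). Its TH replicate 1, at 193 CPM, stood just above THCaP replicate 3, at 185 CPM. Nagpa, the enzyme that uncovers the mannose 6-phosphate tag, rose from 51.6, 47.5 and 48.2 CPM to 65.8, 71.8 and 58.0 CPM (0.41, SE 0.09, edgeR adjusted p = 0.0175). The calls of Igf2r and Nagpa were lost when TH replicate 2 or 3 or THCaP replicate 1 was left out (adjusted p up to 0.0828 and 0.0755).

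Of 29 nutrient-sensing genes that act on the lysosome, 4 fell (13.8%) and 2 rose (6.9%), beside 12.0% and 11.6% of all tested genes (median 0.02). The 3 largest decreases were the members of 1 complex, folliculin and its partners, which controls the Rag GTPases and through them Tfeb and Tfe3. Flcn stood at 71.9, 72.8 and 72.6 CPM on TH, against 51.6, 39.0 and 54.3 on THCaP (−0.58, SE 0.12, edgeR adjusted p = 0.0107), and its call held without each library in turn. Fnip1 fell from 115, 163 and 160.5 CPM to 94.2, 75.2 and 108.5 CPM (−0.66, SE 0.16). Fnip2 fell from 295, 368 and 402 CPM to 238, 184 and 286 CPM (−0.59, SE 0.16). In both genes TH replicate 1 stood just above THCaP replicate 3. The calls of Fnip1 and Fnip2 were lost when TH replicate 2 or 3 or THCaP replicate 1 was left out (adjusted p up to 0.0773 and 0.109). Among 15 genes of V-ATPase assembly and its other partners, 2 fell (13.3%, beside 12.0% of all tested genes) and 0 rose. They were Tcirg1, described above, and Dmxl1, part of the complex that joins V1 to V0 (−0.60, SE 0.16, edgeR adjusted p = 0.0287, up to 0.105 if TH replicate 2 or 3 or THCaP replicate 1 was left out).

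Of 6 tested protease inhibitors 2 fell (33.3%) and 1 rose (16.7%), beside 12.0% and 11.6% of all tested genes. Cst3, which encodes cystatin C, a secreted inhibitor of cysteine cathepsins, was higher on THCaP at 1083, 1157 and 999 CPM against 981, 780 and 736 CPM (0.38, SE 0.11, edgeR adjusted p = 0.041). THCaP replicate 3 stood just above TH replicate 1, so the groups were barely separated, and the call was lost without any single library other than TH replicate 1 and THCaP replicate 3 (adjusted p up to 0.159). The cytosolic inhibitor Cstb (−0.29, SE 0.09, edgeR adjusted p = 0.0455) and the serpin Serpinb6b (−0.59, SE 0.15, edgeR adjusted p = 0.0223) fell. The call of Cstb was kept only without THCaP replicate 2 (up to 0.174), and that of Serpinb6b was lost without TH replicate 2 or TH replicate 3 (up to 0.0781).

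**Figure D4:**
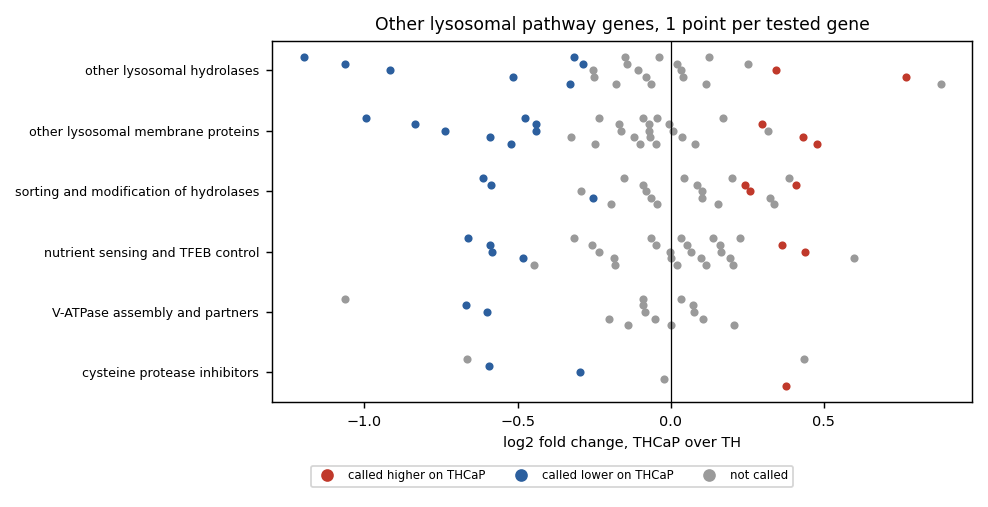
Log2 fold change, THCaP over TH, of each tested gene of the 6 further lists (x axis), 1 row per list, blue for genes called lower, red for genes called higher and grey for those not called. Vertical position within a row has no meaning. The lowest blue point is Hyal3, at −1.20.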

How the data were processed

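RNA sequencing of 6 Raw264.7 libraries (3 TH, 3 THCaP) was deposited as whole-number read counts per gene symbol and as FPKM. The tools that the submitters' processing notes name are fastp, HISAT2 and HTSeq, and the build is mm10. Which annotation and strand setting were used is not given in the sources used here. Reads of overlapping genes therefore cannot be told apart. The deposited FPKM were made by the authors from the same counts: in all 11079 genes with at least 10 counts in every library, the implied gene length was whole within 0.01 bases.

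Counts were fitted in R 4.3.3 with edgeR 4.0.16 (filterByExpr with minimum count 10 and total 15, TMM factors, robust quasi-likelihood test, no covariate) on the whole table, with Benjamini-Hochberg adjustment over 11480 genes. The fit was tested on simulated data first. SE was taken as |log2 fold change| over the square root of F, and CPM were scaled with the TMM factors (mean ± SD). Levels of different genes were compared by FPKM only, which are scaled by library totals. Within-surface pairs of libraries differed by 3.84 (TH replicates 2 and 3) to 48.4 (THCaP replicates 2 and 3) chi-square per degree of freedom. Each library was counted as its own sample, but these values cannot show that the libraries were separate cultures.

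The genes and lists were chosen with earlier results of these data known, so the lists received no test of their own. Named genes are, per role class, up to 5 called genes of at least 5 CPM with the largest change, the 2 with the highest FPKM and 10 fixed genes, and up to 3 called genes per further list. Other genes given with values, such as Lgmn, Sgsh and Mcoln1, were not picked by this rule. Positions came from GENCODE M21 (GRCm38), in which all 70 symbols were found once. Alternatives were DESeq2 1.42.0, limma-voom (limma 3.58.1), RLE factors, library totals, no filter, a filter of 5 CPM in 3 libraries, a replicate block, limma on log2(FPKM + 1) and log2(FPKM + 0.1) for genes of mean FPKM at least 1, the former also unfiltered, and each library left out in turn.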

Additional observations from a re-analysis of the deposited data

How the results depend on the processing

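All 19 calls kept their direction in the 16 alternatives, and 3 (Ctsb, Gla and Neu1) kept the call in all of them. Counts of 16 lower and 3 higher became 12 and 5 with library totals, with log2(FPKM + 1) and with log2(FPKM + 0.1), and 5 and 3 with unfiltered log2(FPKM + 1), where the median log2 fold change was −0.11 in place of −0.17. In that last fit calls over all tested genes fell too, to 3.47% lower and 5.03% higher. Over all tested genes log2(FPKM + 1) gave 9.61% lower and 17.6% higher, and log2(FPKM + 0.1) gave 9.51% and 17.5%. With library totals these shares were 9.26% and 16.6%. Leaving out 1 library gave 3 to 26 lower, 0 to 4 higher and medians from −0.24 to −0.14. Calls over all tested genes then ran from 4.02% to 17.4% lower and from 2.51% to 18.5% higher. DESeq2 gave 21 and 4, beside 11.2% lower and 11.1% higher over all its tested genes. With the replicate number as a block 16 fell and 3 rose, beside 12.7% and 12.4% of all tested genes. They were not all the same genes: Ctsl, Gaa and Gusb lost their call and Lamp1, Mcoln1 and Sgsh gained one. The numbers do not pair the libraries: deviations of same-numbered libraries correlated at −0.02, −0.07 and 0.06.

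Of the 66 tested genes 11 changed sign in at least 1 alternative, none of them among the 19 called, and their log2 fold changes were at most 0.153 in size. They include 3 genes named by the rule. Arsb (−0.00063) was 0.052 with library totals, 0.049 in each FPKM fit and between −0.066 and 0.054 with 1 library left out. Psap (−0.03) was 0.023 with library totals, 0.022 in each FPKM fit and between −0.081 and 0.018 with 1 library left out. Laptm5 (−0.06) was 0.00067 with log2(FPKM + 0.1), 0.00066 with log2(FPKM + 1), filtered or not, and between −0.10 and 0.025 with 1 library left out. The cause was not tested.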

Other observations

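Within a library, the ratio of 2 genes does not depend on how libraries are scaled. The pairs that follow encode partners of known complexes and were chosen after their values were seen, so they carry no test. The FPKM ratio of the V-ATPase A subunit gene Atp6v1a to the B subunit gene Atp6v1b2, which enter the pump in equal number, was 1.94, 2.21 and 2.40 on TH and 1.75, 1.45 and 1.81 on THCaP, by replicate number. In the complex of cathepsin A, Neu1 and Glb1, the ratio of Ctsa to Glb1 was 12.8, 11.7 and 12.7 on TH and 9.95, 9.24 and 10.3 on THCaP. That of Neu1 to Glb1 was 0.803, 0.764 and 0.817 on TH and 0.632, 0.622 and 0.615 on THCaP. In all 3 ratios every THCaP library lay below every TH library. The numerators Atp6v1a, Ctsa and Neu1 are genes called lower above, and Atp6v1b2 and Glb1 were not called. The ratios are therefore not findings separate from those calls.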
